A study of Sus scrofa with 9 samples.

Results

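Pig kidneys that had been kept in static cold storage (SCS) before transplantation were compared with kidneys that were put back without any storage, in biopsies taken 3 days after the operation. The comparison used 6 of the 9 arrays of the series, 3 of SCS and 3 of No Storage, chosen by the treatment label of each sample, with 1 array per animal. It was described across 12355 genes, each with a single symbol in the array annotation and each read from whichever of its probe sets had the highest mean on the 9 arrays, out of 19124 probe sets measured. All animals were male Yorkshire pigs of 30 kg, their age is not given in the labels, and every right kidney went through 30 min of warm ischemia, removal and flushing. No Storage kidneys were then placed back into the same animal at once, whereas SCS kidneys first lay for 8 h in the cold without flow. A further 3 kidneys were perfused outside the body at normal temperature for 8 h (normothermic ex vivo kidney perfusion, NEVKP), and they enter here through the shared estimate of spread and as values set beside SCS. The left kidney of every animal was removed at reimplantation, so warm ischemia, flushing, reimplantation and loss of the other kidney are common to both groups, and the comparison isolates none of them. Healthy kidneys that had not been operated on are not part of the comparison.

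In static cold storage an organ is flushed and held on ice, which slows metabolism but stops the delivery of oxygen, and injury then unfolds when blood returns. The cells of the proximal tubule reabsorb most of the filtrate, run on oxidation of fatty acids and carry most amino acid metabolism of the kidney. After ischemia these cells are known to lose transporters and brush border, to spread and divide, and to send signals to fibroblasts and leukocytes, while cells of the later segments handle salt, water and acid. The question was which of these programmes differ on day 3 between kidneys with and without the cold period.

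Values are log2 intensities, in which a difference of 1 is a doubling, and the level of a probe set says nothing about its level relative to another gene. The median log2 value of an array lay between 5.705 and 5.797, and the correlation of any 2 arrays over all probe sets lay between 0.974 and 0.991. Within a group, the SD of a probe set had a median of 0.148 in No Storage and 0.193 in SCS (n = 3 each). In weights estimated by limma, a method for linear models of array data, SCS replicate 2 had the lowest weight of all arrays, at 0.464. Along the first principal component, which held 27.7% of the variance, SCS replicates 1, 2 and 3 lay at 16.8, 34.4 and -0.021 and the No Storage arrays between -27.0 and -19.7, so the SCS kidneys were unlike each other in how far they lay from No Storage. The kidney markers LRP2 and UMOD were well above the dimmest 25% of probe sets, which ended at a log2 value of 3.92. Not all listed markers were, and the brush border enzyme MEP1A was among the dimmest 25%. LRP2, the endocytic receptor megalin of the proximal tubule, lay between 11.88 and 12.41 on the 6 arrays, and UMOD, the thick ascending limb protein uromodulin, between 8.84 and 12.66. Biopsies are mixtures of cells, and in such bulk tissue fewer cells of a type and less RNA per cell cannot be told apart.

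In limma, 13 probe sets rose and 18 fell in SCS at an adjusted p under 0.05, or 0.068% and 0.0941% of all 19124 probe sets. They stand for 26 named genes, 9 higher and 17 lower. The 4 higher probe sets that remain had no single symbol, and 1 lower gene had 2 probe sets. The balance of higher against lower calls was 43 to 40 with a trended and robust prior and 42 to 40 with the dimmest 25% of probe sets omitted. With array weights it was 46 to 47. It leaned further to lower with arrays centred on their medians (18 to 31), with SCS and No Storage arrays alone (9 to 16) and with a replicate block (9 to 18). The number of calls rested on single arrays. It was 0 without SCS replicate 2, without No Storage replicate 1 or without No Storage replicate 3, it was 1 to 2 without No Storage replicate 2, SCS replicate 1, NEVKP replicate 1 or NEVKP replicate 3, and it was 147 without SCS replicate 3 and 158 without NEVKP replicate 2. With all arrays, 77 genes differed by more than 1 on the log2 scale upwards and 123 downwards, while the median difference over all genes was 0.00018.

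CASQ2, RYR2 and NCALD, which encode calcium handling proteins, were among the falls past the adjusted threshold. CASQ2, calsequestrin 2, which stores calcium inside the sarcoplasmic reticulum of muscle, read 8.58, 8.27 and 8.48 in No Storage and 6.57, 6.78 and 7.01 in SCS, replicates 1 to 3 in order. Every SCS array lay more than 1 log2 unit below every No Storage array, and CASQ2 fell by 1.66 (SE 0.15, limma adjusted p = 0.0123), a 3.15-fold difference. RYR2, the ryanodine receptor that releases the calcium that calsequestrin holds, read 6.06, 5.64 and 5.84 in No Storage and 4.58, 4.61 and 4.83 in SCS. The groups did not overlap, and RYR2 fell by 1.18 (SE 0.15, limma adjusted p = 0.0402). NCALD, the neuronal calcium sensor neurocalcin delta, read 8.68, 8.55 and 8.46 against 7.63, 7.29 and 7.76, and it fell by 1.00 (SE 0.14, limma adjusted p = 0.0419). Of 21 measured genes of calcium release and storage, CASQ2 and RYR2 were the only ones past the adjusted threshold in limma, and the list's median difference was 0.11. Among the others CALR, calreticulin of the endoplasmic reticulum, differed by 0.40 and STIM1, the sensor of stored calcium, by -0.31. Of the 21 differences 13 lay above 0, up to 1.12, and 8 below. At an unadjusted p under 0.05 in limma 2 were higher and 3 lower, or 9.52% and 14.3%. When single arrays were left out, the higher count ranged from 1 to 4 and the lower from 2 to 4. CASQ2 and RYR2 are best known from striated muscle, and the 17 measured markers of fat and striated muscle had a median of -0.12, with 2 members lower at an unadjusted p under 0.05 in limma, the fat genes PLIN4 and CIDEC, and 1 without No Storage replicate 3 or SCS replicate 2. The muscle markers MYH7 and MYL2 differed by -0.16 and -0.19, and MYL1, ACTA1 and ACTC1 by 0.16, 0.02 and 0.02. Of all 17 members 5 lay above 0 and 12 below. Among 17 markers of mesangium, pericytes and smooth muscle 6 were higher and 0 lower at an unadjusted p under 0.05, and 2 were higher without No Storage replicate 1. Over all genes, 7.79% were higher and 9.06% lower at that threshold. The 2 lower fat genes were 11.8% of their list, near that share.

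Transporters and channels made up the next group. SLC38A11, a member of the sodium-coupled amino acid transporter family, read 5.77, 6.27 and 5.99 in No Storage and 4.51, 4.29 and 4.44 in SCS, and it fell by 1.60 (SE 0.18, limma adjusted p = 0.0301). SLC28A2, a sodium-coupled carrier of purine nucleosides, read 5.76, 5.46 and 5.65 against 4.59, 4.11 and 4.13, and it fell by 1.35 (SE 0.16). KCNJ15, an inwardly rectifying potassium channel of epithelia, read 11.23, 10.92 and 11.38 against 9.65, 8.86 and 10.02. Its lowest array was SCS replicate 2 and its groups did not overlap, and it fell by 1.66 (SE 0.26, limma adjusted p = 0.0486). SLC52A3, a riboflavin transporter, fell by 1.26 and ABCA5, a lipid transporter of the ABC family, by 0.99. SLC25A4, the ADP/ATP carrier of the inner mitochondrial membrane, read 8.99, 9.15 and 9.15 against 8.37, 8.17 and 8.43, and fell by 0.77. NKAIN1, a membrane protein that interacts with the sodium pump, was the exception in this group and rose by 0.93, from between 4.33 and 4.65 to between 5.25 and 5.52.

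Enzymes that fell acted on drugs, lipids, aldehydes and sugars. CYP2D25, a pig cytochrome P450 that hydroxylates vitamin D, read 8.32, 8.08 and 8.64 in No Storage and 6.36, 6.02 and 7.12 in SCS. It fell by 1.84 (SE 0.29, limma adjusted p = 0.0486), the largest fall among the 26 genes, and SCS replicate 3 was the SCS array nearest to No Storage. SIAE, which removes acetyl groups from sialic acids, read 8.88, 8.58 and 8.90 against 6.83, 6.57 and 7.61, and fell by 1.78. CYP4F2, an omega-hydroxylase of fatty acids, fell by 1.18. ALDH1B1, a mitochondrial aldehyde dehydrogenase with a further probe set that also passed, fell by 0.98, from between 9.30 and 9.70 to between 8.39 and 8.70. GALNT11, which starts O-glycosylation and is known to modify megalin, read 10.07, 9.53 and 10.11 against 8.67, 8.73 and 8.86, and fell by 1.15.

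The remaining falls concerned membrane traffic and cell polarity. RAB30, a small GTPase of the Golgi, read 7.99, 7.74 and 7.58 in No Storage and 6.07, 5.83 and 6.84 in SCS, and fell by 1.52 (SE 0.24). EVA1A, a membrane protein of the endoplasmic reticulum and lysosome linked to autophagy, lay within 7.45 to 7.55 in No Storage and read 6.51, 6.13 and 6.51 in SCS, and it fell by 1.11 (SE 0.14, limma adjusted p = 0.0402). MPP7, a scaffold of epithelial polarity complexes, fell by 0.92 (SE 0.13), and its SCS values of 6.89, 6.91 and 7.03 lay close together. For EVA1A and MPP7 the No Storage spread was also narrow, with an SD of 0.052 and 0.10 (n = 3).

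Of the 26 named genes 9 rose. TIMP1, the inhibitor of matrix metalloproteinases, read 8.95, 8.74 and 8.59 in No Storage and 10.71, 10.34 and 10.10 in SCS, and rose by 1.62 (SE 0.24, limma adjusted p = 0.048). LGALS1, the sugar-binding protein galectin-1, read 8.40, 8.26 and 7.82 against 9.63, 9.84 and 9.37, and rose by 1.45 (SE 0.19, limma adjusted p = 0.0402). ITGB3, the integrin beta 3 chain that pairs with the alpha v chain in cells other than platelets, read 5.93, 5.87 and 5.59 against 7.20, 7.19 and 6.68, and rose by 1.23. The groups were apart on every array for these 3 genes. PIK3AP1, an adaptor that links receptors of leukocytes to phosphoinositide 3-kinase, rose by 1.33, from 8.56, 8.40 and 8.47 to 10.12, 9.74 and 9.56. The transcription factors MYC and KLF5 rose by 1.10 and 0.88, and DUSP5, a nuclear phosphatase of the kinase ERK, by 1.04. IFNK, interferon kappa, rose by 0.80, although its probe set was among the dimmest 25%, with values of 3.25 to 3.35 in No Storage and 4.02 to 4.28 in SCS.

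**Figure D1:**
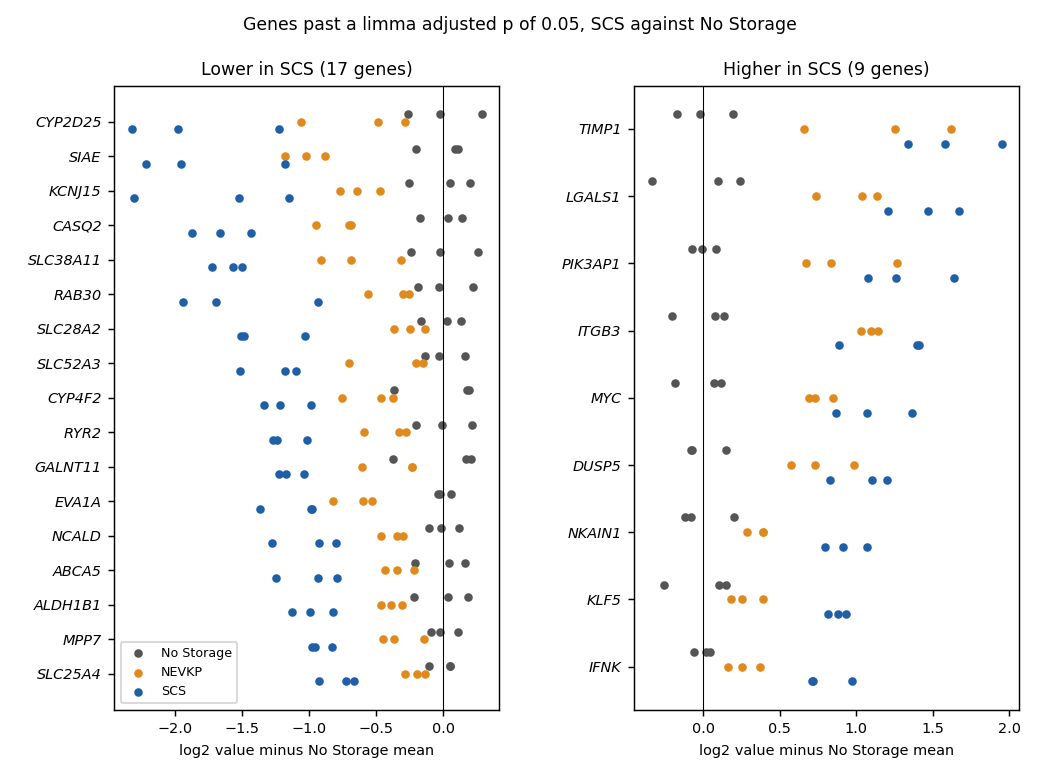
Each row is 1 of the 26 genes past a limma adjusted p of 0.05, each point is 1 array, and the horizontal axis is the log2 value minus the mean of the 3 No Storage arrays. All SCS points lie apart from the No Storage points, and for most genes the NEVKP points lie between them, as for CASQ2, where the NEVKP values were 7.49 to 7.75.

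The 10 genes next by p after those past the threshold had limma adjusted p from 0.0503 to 0.0513, and the 3 genes after them also stood at 0.0513. Of the 10, the lower ones were CDKL2 (-1.12), a kinase related to cyclin-dependent kinases, STRA6 (-0.90), the membrane receptor for retinol-binding protein, RPS6KA6 (-0.89), a ribosomal S6 kinase, VEGFD (-0.94), a growth factor of lymphatic vessels, and the protease gene ADAMTS15 (-0.72). The higher ones were KRT18 (1.09), a keratin of simple epithelia, SPI1 (1.03), a transcription factor of myeloid cells, RHOC (0.99), a GTPase of the actin skeleton, PKDCC (0.85), a secreted tyrosine kinase, and a dim probe set annotated to the microRNA gene MIRLET7I (0.89). KRT18 read 7.95, 7.98 and 7.74 in No Storage and 9.12, 9.27 and 8.56 in SCS. The values of CDKL2, 6.58, 6.92 and 6.62 against 5.27, 5.88 and 5.61, were as far apart as those of many genes inside the threshold.

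Along the nephron, the lists from the proximal tubule to the collecting duct had medians below 0, and the glomerular list had a median near 0. Over all genes, 7.79% were higher and 9.06% lower at an unadjusted p under 0.05 in limma. These shares are the background for every list count of SCS against No Storage. The lists were chosen with earlier results of these data known, so a share above this background describes the members and is not a test. Of 13 markers of podocytes and glomerular epithelium, 3 were higher and 1 lower at that threshold, with a median of -0.07. NPHS1, the slit diaphragm protein nephrin, differed by -0.32, and its groups overlapped. The higher members were SULF1 (1.03), a sulfatase of heparan sulfate, KIRREL (0.73), a partner of nephrin, and CD2AP (0.45), an adaptor of the slit diaphragm. The 1 lower member was CLIC5 (-0.61), whose SCS arrays lay entirely below No Storage. Of all 13 members 5 lay above 0 and 8 below. For the median of this list the sign changed without SCS replicate 1, to 0.09.

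The lists of the proximal tubule had medians between -0.67 and -0.22. Of 23 carriers and uptake receptors at the entry side of proximal tubule cells, 10 were lower and 1 higher at an unadjusted p under 0.05, or 43.5% and 4.35%, with a median of -0.67. Among them SLC38A11 passed the adjusted threshold. SLC15A2, which takes up small peptides, read 9.59, 9.31 and 9.75 in No Storage and 7.38, 8.68 and 8.35 in SCS, and differed by -1.41 (SE 0.29, limma adjusted p = 0.0702). SLC6A18 and SLC6A19, carriers of neutral amino acids, differed by -1.14 and -1.18, the dicarboxylate carrier SLC13A3 by -1.07, and the glucose carrier SLC5A2 by -1.21. The uptake receptors megalin (LRP2) and cubilin (CUBN) differed by -0.31 and -0.57 (limma adjusted p = 0.552 and 0.349). Their SCS arrays lay entirely below No Storage, as they did for 13.3% of all genes. The phosphate carrier SLC34A1 went the other way, at 4.01, 4.82 and 4.46 against 4.94, 5.61 and 5.80, a difference of 1.02 (limma adjusted p = 0.193). Of 17 carriers of organic ions, vitamins and nucleosides, 5 were lower and 1 higher, with a median of -0.22. SLC28A2 and SLC52A3 passed the adjusted threshold there, and SLC22A12, the urate exchanger, differed by -0.89. Of 10 brush border enzymes 6 were lower and 0 higher, with a median of -0.60. ACE, angiotensin-converting enzyme, read 8.59, 7.95 and 8.29 against 7.06, 7.55 and 7.27, and differed by -0.98 (SE 0.22, limma adjusted p = 0.0905). The peptidases NAALADL1 and MME, the latter neprilysin, differed by -0.83 and -1.06. Without No Storage replicate 1 or 3, the brush border count was 3.

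In the thick ascending limb, which reabsorbs salt without water, 5 of 10 markers were lower and 0 higher, with a median of -0.60, and 8 had SCS arrays entirely below No Storage. Arrays without overlap were found for 11.7% of all genes upwards and 13.3% downwards. UMOD, uromodulin, read 12.66, 11.64 and 12.30 in No Storage and 10.09, 8.84 and 11.03 in SCS. SCS replicate 3 was nearest to No Storage and replicate 2 farthest, and the difference of -2.21 (SE 0.49) missed the threshold (limma adjusted p = 0.0895). KNG1, kininogen, the precursor of kinins, followed the same order of arrays, at 10.80, 10.33 and 10.62 against 8.64, 7.68 and 9.60, a difference of -1.94 (limma adjusted p = 0.0748). SLC12A1, the sodium, potassium and chloride cotransporter, differed by -0.78 and the sodium/proton exchanger SLC9A2 by -0.57. The count of 5 was 3 without No Storage replicate 1 or SCS replicate 1. In the distal convoluted and connecting tubule 4 of 12 markers were lower and 0 higher, with a median of -0.21. CALB1, calbindin, which carries calcium through these cells, read 10.90, 11.17 and 11.20 against 8.31, 9.72 and 10.50. It differed by -1.58 (SE 0.45, limma adjusted p = 0.141), and here SCS replicate 1 was the lowest. CNNM2, a magnesium transport protein, differed by -0.69 and KLHL3, a ubiquitin ligase adaptor of the kinases that control salt transport, by -0.54.

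In the collecting duct, the lists of both main cell types had medians below 0. Of 18 markers of intercalated cells, which secrete acid or base, 14 were lower and 0 higher, or 77.8%, with a median of -0.85 and all 18 differences below 0. SLC26A7, an anion exchanger, read 9.47, 9.20 and 9.29 in No Storage and 7.36, 6.64 and 8.37 in SCS, and differed by -1.86 (SE 0.35, limma adjusted p = 0.06). Of the 5 subunits of the proton pump in the list, ATP6V0A4 differed by -1.56, ATP6V1C2 by -1.16, ATP6V1G3 by -0.75 and ATP6V0D2 by -0.95, the last with overlapping groups, all at an unadjusted p under 0.05. ATP6V1B1 differed by -0.28 and was not past it (limma adjusted p = 0.38). The ammonia channels RHCG and RHBG differed by -1.58 and -1.45 and the carbonic anhydrase CA12 by -1.13. FOXI1, the transcription factor that defines these cells, differed by -0.42 (limma adjusted p = 0.354), with 6.71, 6.81 and 6.64 against 5.93, 6.43 and 6.53. The count of 14 was 8 without SCS replicate 1 and 9 without SCS replicate 2 or No Storage replicate 2 or 3. Of 17 markers of principal cells, which reabsorb sodium and water, 5 were lower and 1 higher, with a median of -0.26. SCNN1A, the alpha subunit of the epithelial sodium channel, read 8.05, 8.06 and 7.93 against 7.15, 7.24 and 7.48, and differed by -0.73 (SE 0.12, limma adjusted p = 0.0529). HSD11B2, which keeps cortisol away from the mineralocorticoid receptor, differed by -1.43, and the water channel AQP2 by -1.09.

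**Figure D2:**
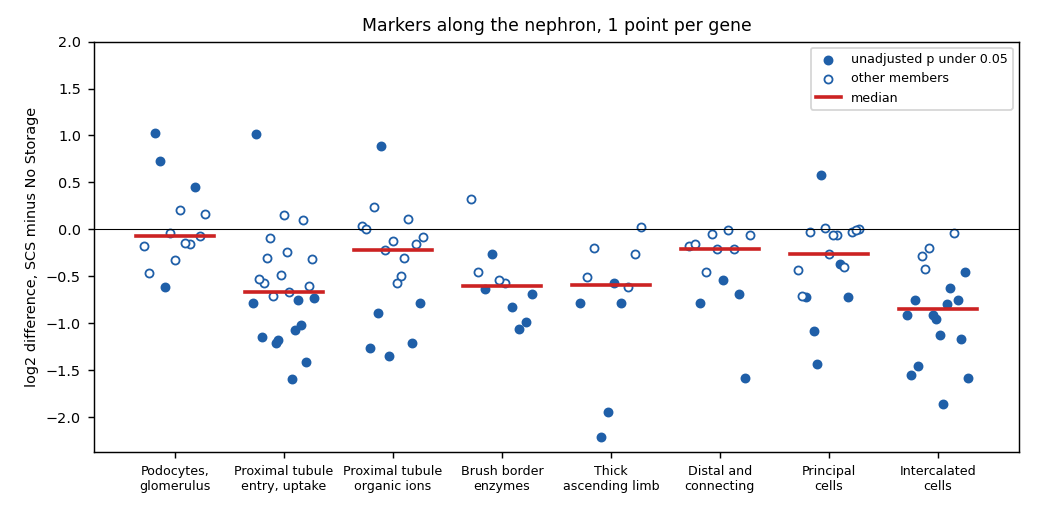
Each point is 1 marker gene, the vertical axis is its log2 difference between SCS and No Storage (means of 3 arrays each), filled points have an unadjusted p under 0.05 in limma, and red lines are medians, from -0.07 in podocytes to -0.85 in intercalated cells. No intercalated cell marker lies above 0, whereas podocyte markers lie on both sides.

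Most listed metabolic enzymes of tubule cells were lower. Of 28 enzymes that handle amino acids and small molecules, 20 were lower and 0 higher at an unadjusted p under 0.05, or 71.4%, with a median of -0.75, and 1 of them, SIAE, passed the adjusted threshold. MIOX, which opens the ring of inositol and is largely confined to the kidney, read 11.24, 10.62 and 10.87 in No Storage and 9.48, 9.38 and 9.87 in SCS. The groups did not overlap, and the difference was -1.33 (SE 0.25, limma adjusted p = 0.0646). BHMT2, which methylates homocysteine, differed by -1.21, AGMAT, which acts on agmatine, by -1.12, and DMGDH, an enzyme of choline breakdown, by -1.10. The mean of the 28 genes relative to No Storage was -0.79, -1.16 and -0.55 in SCS replicates 1, 2 and 3. Of 13 genes of gluconeogenesis and fructose metabolism 9 were lower, with a median of -0.66, led by SLC37A4 (-0.97), the glucose 6-phosphate carrier, LDHD (-0.64), which oxidises D-lactate, and GPD1 (-1.14), which links glycerol and sugar metabolism.

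Most genes of mitochondrial fatty acid oxidation were lower. Of 21 measured genes 17 were lower and 0 higher, or 81.0%, with a median of -0.60, and 19 had SCS arrays entirely below No Storage. ACADS, the acyl-CoA dehydrogenase of short chains, read 9.27, 9.50 and 9.37 against 8.41, 8.01 and 8.77, and differed by -0.98 (SE 0.19, limma adjusted p = 0.0646). ACAD11 and ACADSB differed by -0.95 and -0.73 and the ketone body enzyme BDH1 by -1.16. The count of 17 was 10 without SCS replicate 2 and 11 without No Storage replicate 2. Of 21 peroxisomal genes 11 were lower and 0 higher, with a median of -0.44, including the thiolase ACAA1 (-1.20), the oxidase ACOX2 (-0.62), the lipid carrier SCP2 (-1.22), catalase (CAT, -0.53) and the peroxins PEX2 (-0.54), PEX19 (-0.44) and PEX3 (-0.46), which build the organelle. Other oxidation enzymes of the list were not past that threshold, among them ACOX3 at -0.31, DECR2 at -0.29, EHHADH at 0.18 and AMACR at 0.24. PPARA, the nuclear receptor that drives genes of fatty acid oxidation, read 9.77, 9.23 and 9.78 against 8.31, 8.08 and 8.70, a difference of -1.23 (SE 0.23, limma adjusted p = 0.06). Of 33 nuclear receptors and tubule transcription factors it was 1 of 5 that were lower, and EMX2 (0.59), a factor of kidney development, was the 1 that was higher. The list's median was -0.15, and the 5 became 3 without No Storage replicate 1 or SCS replicate 1 and 8 without NEVKP replicate 2.

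The lists of central energy pathways had medians nearer to 0. Of 20 citric acid cycle genes 6 were lower, with a median of -0.17, and 2 were lower without SCS replicate 2. DLD, a shared subunit of dehydrogenase complexes, read 10.22, 10.33 and 10.32 in No Storage and 10.02, 9.15 and 9.91 in SCS, so that SCS replicate 2 set most of its difference of -0.60. Of 38 genes of the respiratory chain and ATP synthase 6 were lower, with a median of -0.14, and SLC25A4 passed the adjusted threshold. Of 15 glycolysis genes 3 were higher and 2 lower, with a median of 0.08, and LDHA, lactate dehydrogenase A, differed by 0.59. Both glycolysis counts moved with single arrays: the 3 higher became 0 without SCS replicate 1 and 1 without No Storage replicate 2 or 3, and the 2 lower became 0 without No Storage replicate 2 or 3, SCS replicate 2 or NEVKP replicate 3 and 1 without SCS replicate 1 or 3. Of 34 cytochrome P450 and conjugating enzymes 13 were lower and 1 higher, with a median of -0.40, and ALDH1B1, CYP4F2 and CYP2D25 passed the adjusted threshold. FMO1, a flavin monooxygenase, read 11.16, 11.26 and 11.20 against 10.08, 9.32 and 10.40, and differed by -1.27 (limma adjusted p = 0.0726). The count of 13 was 8 without SCS replicate 2.

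**Figure D3:**
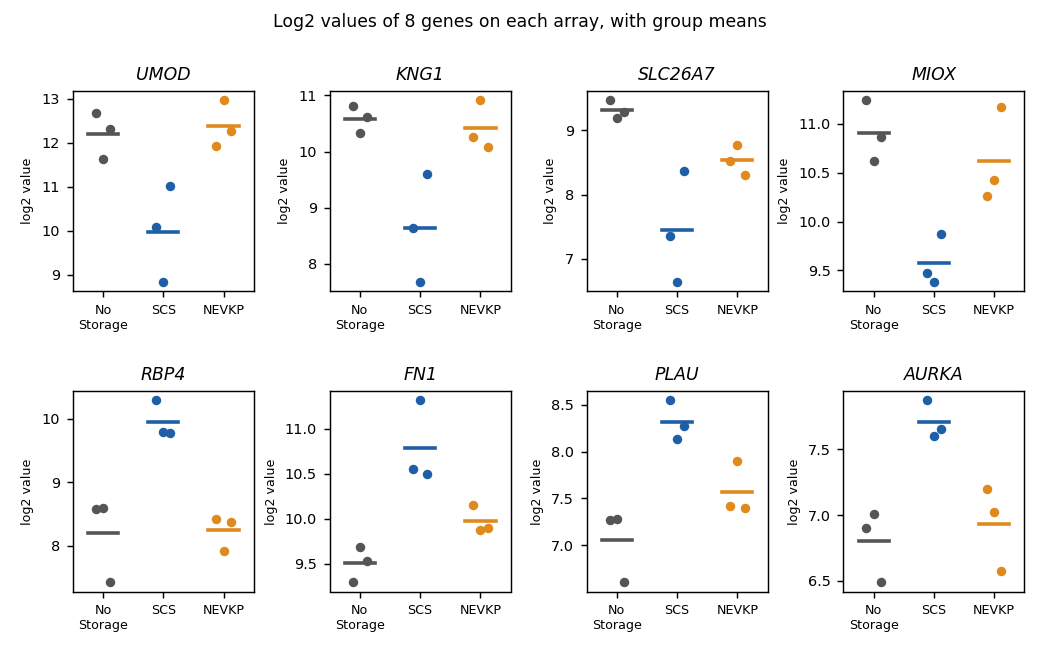
Each panel is 1 gene, with the log2 value of each array as a point and the group mean as a line, on an axis that does not start at 0. UMOD, KNG1, SLC26A7 and MIOX were lower on all 3 SCS arrays than on any No Storage array, with UMOD at 8.84 to 11.03 against 11.64 to 12.66, and RBP4, FN1, PLAU and AURKA were higher.

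Most listed genes of tubular injury and dedifferentiation were higher. Of 33 measured members 22 were higher and 0 lower at an unadjusted p under 0.05, or 66.7%, with a median of 0.70. Of the 33 differences 28 lay above 0 and 5 below, down to -0.75, and 1 gene had SCS arrays entirely below No Storage. LGALS1 was the 1 member past the adjusted threshold. PLAU, urokinase, which activates plasminogen, read 7.27, 7.28 and 6.60 in No Storage and 8.54, 8.13 and 8.27 in SCS, and differed by 1.26 (SE 0.22, limma adjusted p = 0.0532). RBP4, the plasma carrier of retinol, read 8.59, 8.59 and 7.42 against 10.29, 9.80 and 9.78, and differed by 1.76 (SE 0.30, limma adjusted p = 0.0532). STRA6, the receptor for RBP4, read 9.94, 9.52 and 9.64 against 8.87, 8.65 and 8.88, so the carrier and its receptor differed in opposite directions. TMSB10, a small actin-binding protein, differed by 0.76. The injury marker LCN2, lipocalin 2, overlapped between groups, at 9.37, 8.74 and 9.06 against 10.15, 9.43 and 9.20, a difference of 0.54 (limma adjusted p = 0.54). HAVCR1, kidney injury molecule 1, had a dim probe set at 2.40 to 2.69 on the 6 arrays. Of 28 immediate early and stress regulators 11 were higher and 0 lower, with a median of 0.37. Besides MYC, DUSP5 and KLF5, these included RUNX1 (0.99), a transcription factor of blood cells, and JUN (0.75), a part of the AP-1 complex.

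Matrix and adhesion genes lay higher in several classes. Of 25 collagens and collagen-modifying enzymes 15 were higher and 0 lower, or 60.0%, with a median of 0.51. COL1A1, the alpha 1 chain of type I collagen, read 10.60, 10.58 and 10.86 in No Storage and 11.71, 12.25 and 11.42 in SCS, and differed by 1.11 (SE 0.20, limma adjusted p = 0.0592). COL5A2 differed by 0.71, and SERPINH1, a chaperone of collagen folding, by 0.84. Of 30 matrix glycoproteins and proteoglycans 12 were higher and 0 lower, with a median of 0.46. FN1, fibronectin, read 9.30, 9.69 and 9.53 against 10.55, 11.31 and 10.50, and differed by 1.28 (SE 0.21, limma adjusted p = 0.0513). TGFBI and VCAN, matrix proteins of repair, differed by 1.24 and 1.30, and in both SCS replicate 2 was the highest SCS array. Of 35 matrix proteases and inhibitors 12 were higher and 0 lower, with a median of 0.25, including TIMP1, PLAU, the urokinase receptor PLAUR (1.15) and the protease ADAM12 (1.27). Of 21 integrins and focal adhesion genes 7 were higher and 0 lower, with ITGB3 past the adjusted threshold. ITGA3, the alpha 3 chain of the laminin receptor, read 8.07, 8.64 and 8.29 against 9.83, 9.48 and 9.14, and differed by 1.15 (limma adjusted p = 0.0646). Of 37 genes of the actin cytoskeleton 19 were higher and 0 lower, or 51.4%, with a median of 0.29. They included FSCN1 (0.93), which bundles actin, PFN1 (0.67), which feeds actin monomers to filaments, and ACTN1 (0.78), which crosslinks them.

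Part of the markers of the cells that make matrix were higher alongside. Of 18 fibroblast markers 7 were higher and 0 lower, with a median of 0.45, and 4 were higher without SCS replicate 2 or 3. These 7 included COL1A1, COL1A2 (0.87) and COL3A1 (0.74), which the collagen list also holds, and TNC (1.42), tenascin C, whose groups overlapped. The rest of the 7 were THY1 (0.64) and the matrix genes LOX (0.36) and DCN (0.65), so most of these members are matrix genes themselves. PI16, a marker of fibroblasts around vessels, differed by -0.19, and ASPN, CXCL12, C7 and DPT by -0.45, -0.16, -0.05 and -0.04. In all, 13 of the 18 markers lay above 0 and 5 below. The smooth muscle and pericyte list had 6 higher, among them TPM2 (0.66), RGS5 (0.90) and ACTA2 (0.58), smooth muscle actin, and a median of 0.38. That count was 2 without No Storage replicate 1 and 3 without No Storage replicate 3 or SCS replicate 2. Of its 17 members 14 lay above 0 and 3 below, namely SYNPO2 (-0.43), ITGA8 (-0.27) and MYLK (-0.12). SYNPO2 had SCS arrays entirely below No Storage. The part of fibroblasts, smooth muscle and pericytes in the higher matrix genes was not tested. Of 37 genes of transforming growth factor beta, BMP and WNT signalling 3 were higher and 1 lower, and TGFB1 differed by 0.59 (limma adjusted p = 0.278). The 3 became 6 without SCS replicate 3, 1 without No Storage replicate 2 or SCS replicate 2 and 0 without No Storage replicate 3.

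Among cell division genes, those of mitosis and G2/M were higher as a whole class, without a single member past the adjusted threshold. All 35 measured genes of mitosis and G2/M had a difference above 0, between 0.25 and 0.91, and 22 were higher at an unadjusted p under 0.05, or 62.9%, with a median of 0.65. AURKA, a kinase of the mitotic spindle, read 6.90, 7.01 and 6.49 in No Storage and 7.87, 7.61 and 7.65 in SCS, and differed by 0.91 (SE 0.19, limma adjusted p = 0.0749). RACGAP1, a regulator of cell separation, differed by 0.75, UBE2C, a ubiquitin enzyme of mitotic exit, by 0.87 and FOXM1, a transcription factor of these genes, by 0.57. Relative to the No Storage mean, the mean of the 35 genes was -0.004, 0.35 and -0.34 in No Storage replicates 1, 2 and 3 and 0.80, 0.46 and 0.61 in SCS. The No Storage arrays were thus spread widely for this list, and the count was 13 without No Storage replicate 3 and 14 without SCS replicate 1. Of 31 genes of DNA replication and G1/S 10 were higher and 0 lower, with a median of 0.25, led by MCM4 (0.60), a part of the replicative helicase. The count of 10 fell to 3 or fewer without No Storage replicate 1 or 3 or SCS replicate 1, and was 6 without SCS replicate 3. Of the 31 differences 25 lay above 0 and 6 below, and 2 genes had SCS arrays entirely below No Storage. CDKN1A, the cell cycle inhibitor p21, read 6.22, 7.20 and 6.26 against 7.09, 7.34 and 7.11, a difference of 0.62 with overlapping groups.

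Ribosomal protein genes shared a small upward difference. All 37 measured cytosolic ribosomal proteins had a difference above 0, between 0.06 and 0.60, with a median of 0.29. At an unadjusted p under 0.05, 16 were higher, or 43.2%, and 23 had SCS arrays entirely above No Storage. RPL10A, a protein of the large subunit, read 9.25, 9.29 and 9.19 in No Storage and 9.69, 9.73 and 9.78 in SCS, a difference of 0.49 (SE 0.12, limma adjusted p = 0.107). RPS25 and RPS24, of the small subunit, differed by 0.60 and 0.55. The count of 16 was 10 without No Storage replicate 1, and with arrays centred on their medians the list's median was 0.24. Of 24 genes of ribosome biogenesis and MYC targets 5 were higher and 1 lower, led by NHP2 (0.46), and the 5 became 1 without No Storage replicate 3 or SCS replicate 1, 2 and 3 without No Storage replicates 2 and 1, and 9 without SCS replicate 2.

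**Figure D4:**
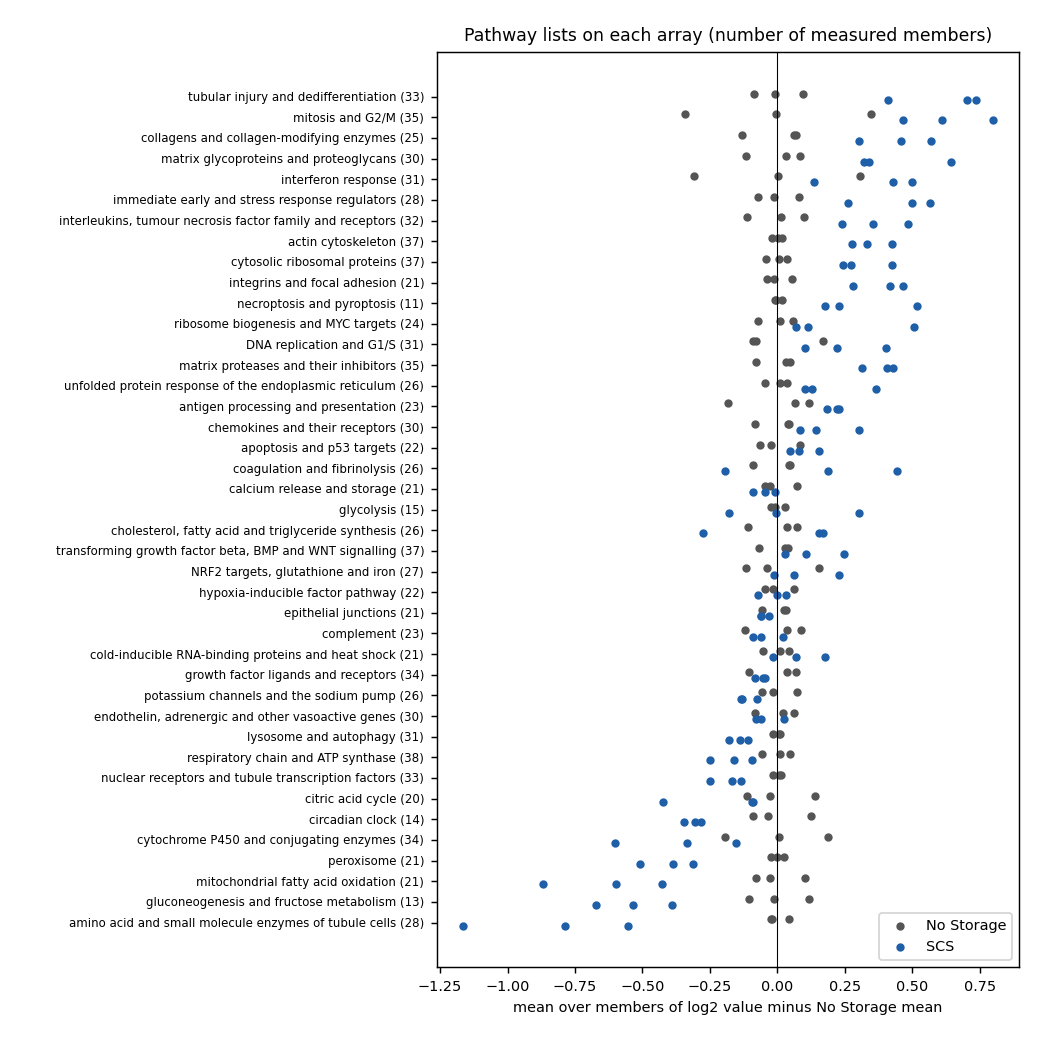
Each row is a pathway list, each point is the mean over its measured genes of the log2 value minus the No Storage mean on 1 array, and rows are ordered by the list's median difference. The amino acid enzymes lie lowest, at -1.16 to -0.55 in SCS, and the lists with the highest medians are tubular injury, at 0.41 to 0.74, and mitosis and G2/M, at 0.46 to 0.80; for hypoxia and for junctions the groups lie on each other.

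The hypoxia list and the list of cold-inducible and heat shock genes had medians near 0 on day 3, while other stress lists differed more. Of 22 genes of the hypoxia-inducible factor pathway 0 were higher and 1 was lower, EGLN3 (-0.49), an oxygen-sensing hydroxylase, and the median was 0.0089. Of 21 cold-inducible RNA-binding and heat shock genes 3 were higher and 0 lower, with a median of -0.03. CIRBP, the cold-inducible RNA-binding protein, read 8.74, 8.60 and 8.83 in No Storage and 8.28, 8.97 and 8.23 in SCS, with SCS replicate 2 above and the other SCS arrays below every No Storage array. The 3 higher members were the chaperones HSP90AB1 (0.39), HSPB1 (0.69) and HSPB8 (0.50). In the unfolded protein response of the endoplasmic reticulum, 10 of 26 genes were higher and 0 lower, with a median of 0.24. PDIA6, which forms disulfide bonds, read 9.03, 8.86 and 9.11 against 9.67, 9.52 and 9.69, a difference of 0.62 (SE 0.14, limma adjusted p = 0.0905), and MANF and HYOU1 both differed by 0.62. That count was 4 without SCS replicate 1 and 6 without No Storage replicate 1 or 3. NRF2 targets and glutathione genes went both ways, 4 higher and 5 lower of 27. GPX8 and PRDX4, peroxidases of the endoplasmic reticulum, differed by 1.06 and 0.57, while SOD2 and PRDX3, which act in mitochondria, differed by -0.50 and -0.40. The 4 higher became 2 without No Storage replicate 1 or 3 or SCS replicate 1, and the 5 lower became 2 without No Storage replicate 2 or SCS replicate 2 and 3 without No Storage replicate 1 or 3 or SCS replicate 1. Of 22 apoptosis and p53 genes 3 were higher and 0 lower, with a median of 0.12, and the 3 became 5 without SCS replicate 1, 1 without No Storage replicate 1 or SCS replicate 2 and 0 without No Storage replicate 3. Of 11 genes of necroptosis and pyroptosis 3 were higher, led by CASP1 (0.84), the protease that activates interleukins.

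Immune genes differed in part of the lists. Of 22 markers of monocytes and macrophages 6 were higher and 1 lower, with a median of 0.18. Besides PIK3AP1 and SPI1, the receptor chain FCER1G (0.81) and the signalling adaptor TYROBP (0.52) were higher. C1QA, C1QB and C1QC, the chains of complement C1q made by resident macrophages, differed by -0.60, -0.63 and -0.65. C1QB read 9.52, 9.50 and 9.38 in No Storage and 8.68, 8.59 and 9.25 in SCS, and the general markers CD14, CSF1R and MRC1 differed by 0.13, 0.17 and 0.06. Of 10 neutrophil markers 3 were higher and 0 lower, with a median of 0.22. S100A12, a calcium-binding protein of neutrophils, read 4.93, 5.98 and 4.73 against 7.28, 6.45 and 6.46, a difference of 1.51 (SE 0.32, limma adjusted p = 0.0748). CHI3L1, a chitinase-like protein of neutrophils and injured epithelium, read 6.83, 5.68 and 5.72 against 7.65, 8.20 and 7.60, a difference of 1.74, while 5 of the 10 probe sets were dim. The neutrophil markers MPO, AZU1 and PADI4 differed by -0.03, -0.10 and -0.10, and 7 of the 10 lay above 0. Of 24 T and NK cell markers 1 was higher and 1 lower and of 11 B and plasma cell markers 0 were, with medians of 0.06 and 0.04. PTPRC, the leukocyte antigen CD45, differed by 0.33 with overlapping groups.

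Among secreted signals, 10 of 32 genes of interleukins, the tumour necrosis factor family and their receptors were higher and 0 lower, with a median of 0.36. CSF1, the growth factor of macrophages, read 7.79, 7.73 and 7.59 in No Storage and 8.82, 8.65 and 8.53 in SCS, a difference of 0.96 (SE 0.19, limma adjusted p = 0.0646). LIF, a cytokine of the interleukin-6 family, differed by 0.79, and IL6, at 4.54, 4.98 and 5.06 against 7.16, 6.06 and 5.91, by 1.52 (limma adjusted p = 0.149). The count of 10 was 5 without No Storage replicate 3 and 6 without No Storage replicate 2. CCL2, a chemokine for monocytes, read 7.99, 8.18 and 7.72 against 9.92, 9.39 and 9.36, a difference of 1.59 (limma adjusted p = 0.0883), and 3 of 30 chemokine genes in all were higher, or 6 without SCS replicate 3 or NEVKP replicate 2. Of 31 interferon response genes 5 were higher, with a median of 0.41. The No Storage arrays were spread over -0.31 to 0.31 for this list, and the count was 2 without No Storage replicate 2 and 8 without NEVKP replicate 3. Of 23 genes of antigen processing 6 were higher, led by PSME2 (0.76), an activator of the proteasome, and 2 without No Storage replicate 2 and 3 without SCS replicate 1.

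Vessel and clotting genes showed no common direction. Of 19 endothelial markers 1 was higher, ENG (0.58), endoglin, and 1 lower, TEK (-0.67), the angiopoietin receptor, and PECAM1 differed by -0.06. Of 26 genes of coagulation and fibrinolysis 4 were higher and 4 lower. Antithrombin, SERPINC1, read 6.14, 5.45 and 5.90 in No Storage and 4.87, 4.31 and 4.78 in SCS, a difference of -1.18 (SE 0.20, limma adjusted p = 0.0513), and the clotting factor F9 differed by -1.85, whereas PLAU and PLAUR, of fibrinolysis, were higher. Of 14 clock genes 4 were lower and 1 higher, with a median of -0.33. RORA, a nuclear receptor of the clock, read 8.66, 8.42 and 8.83 against 7.84, 7.57 and 7.96, a difference of -0.84 (SE 0.16, limma adjusted p = 0.06), and PER2, DBP and PER1 differed by -0.88, -1.53 and -0.37. The hour at which biopsies were taken is not given in the labels. Of 31 lysosome and autophagy genes 8 were lower and 2 higher, with MCOLN1 (-0.70), a lysosomal calcium channel, lower and NPC2 (0.59), which carries cholesterol, higher. The 8 lower became 4 without No Storage replicate 3, and the 2 higher became 1 without any 1 No Storage array, SCS replicate 1 or 3 or NEVKP replicate 3. Of 26 genes of lipid and sterol synthesis 3 were higher and 3 lower, among them the carboxylases ACACA (0.83) and ACACB (-0.78), 2 isoenzymes that make malonyl-CoA. The 3 higher became 7 without SCS replicate 2 and 1 without No Storage replicate 1 or SCS replicate 3. Markers of urothelium, mesothelium and adrenal, tissues that a biopsy could touch, had 0 of 10 members past an unadjusted p of 0.05 in limma and a median of 0.05.

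The largest differences in size were not the ones with the smallest p. ZADH2, a zinc-binding alcohol dehydrogenase family member, differed by -3.26 (SE 0.95, limma adjusted p = 0.145), with 8.41, 5.51 and 9.13 in No Storage and 3.97, 4.38 and 4.90 in SCS. Its No Storage replicate 2 lay far below the other No Storage arrays, though above all SCS arrays. UQCR10, a small subunit of respiratory complex III, differed by 1.55, and No Storage replicate 1 read 6.45 where the other No Storage arrays read 8.93 and 9.13. HRG and F9, plasma proteins known from the liver, differed by -1.94 and -1.85, and in both SCS replicate 2 was the lowest array, at 4.09 and 5.98. The monocarboxylate carrier SLC16A4 differed by -1.82, with 10.20, 10.10 and 10.38 against 8.33, 7.64 and 9.25. On the higher side, SHAS2, the hyaluronan synthase 2 gene, differed by 1.53, the transcription factor CREB5 by 1.50, the clock factor ARNTL2 by 1.51 and a probe set annotated to the microRNA gene MIR21 by 1.45.

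SCS and NEVKP were both set against the same No Storage arrays, so their differences from No Storage share those arrays and are given side by side. The direct test of SCS against NEVKP called 0 probe sets at an adjusted p under 0.05 in limma, and 1434 had an unadjusted p under 0.05. The smallest adjusted p there was 0.183 and belonged to CDKL2, which differed from No Storage by -1.12 in SCS and by 0.22 in NEVKP. For the genes past the threshold in SCS, ITGB3 differed by 1.09 in NEVKP where it rose by 1.23 in SCS, and LGALS1 by 0.97 where it rose by 1.45. KLF5 differed by 0.28 in NEVKP where it rose by 0.88, SLC28A2 by -0.25 where it fell by 1.35, and SLC25A4 by -0.20 where it fell by 0.77. RBP4 differed by 0.04 in NEVKP and 1.76 in SCS, and its difference between SCS and NEVKP was 1.72 (limma adjusted p = 0.314). ITGA3 differed by -0.10 in NEVKP and 1.15 in SCS (limma adjusted p = 0.341 for SCS against NEVKP).

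By list, the thick ascending limb, cell division and immune genes had the most unlike values. The thick ascending limb had a median of 0.05 in NEVKP and -0.60 in SCS, and UMOD read 11.93, 12.96 and 12.26 in NEVKP. Mitosis and G2/M had a median of 0.20 in NEVKP and 0.65 in SCS, with 14 of 35 genes higher in SCS than in NEVKP at an unadjusted p under 0.05 in limma. Over all 19124 probe sets, 1434 passed that threshold in either direction, and the share of all genes higher in SCS than in NEVKP was not computed. Ribosomal proteins had a median of 0.12 in NEVKP and 0.29 in SCS. Intercalated cell markers had a median of -0.66 in NEVKP and -0.85 in SCS, fatty acid oxidation -0.42 and -0.60, and the injury list 0.44 and 0.70. The interferon list had 0.87 in NEVKP and 0.41 in SCS, and its mean was 1.48 in NEVKP replicate 3 against 0.44 and 0.47 in the other NEVKP arrays. None of these list values carries a test, and no single gene passed in SCS against NEVKP.

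**Figure D5:**
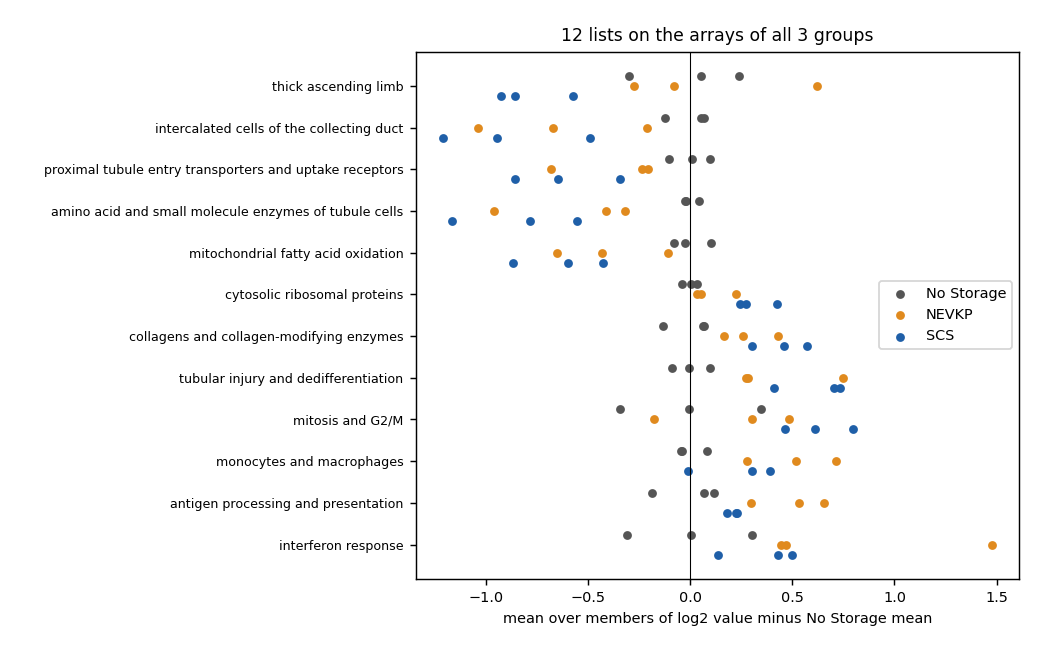
Each row is a gene list, and each point is the mean over its genes of the log2 value minus the No Storage mean on 1 array, for No Storage, NEVKP and SCS. In the thick ascending limb the SCS arrays lie at -0.93 to -0.57 and the NEVKP arrays at -0.27 to 0.62, whereas for the other lower lists the ranges of both groups meet.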

How the data were processed

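The deposited values were log2 intensities per probe set, which the authors made with RMA, per the submitters' processing notes, which also name limma 3.34.14. RMA corrects background, quantile-scales arrays and sums probes, so a change shared by most genes would not show. Array type and genome build were not given in the sources used here. The annotation named 13680 of 19124 probe sets, 13323 with 1 symbol and 357 with several; 7 whose symbol and gene ID disagreed were left out, giving 12355 genes, 901 with several probe sets. RefSeq assigned the same symbol by gene ID to 12918 probe sets. There were 944 probe sets identical to another.

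All 9 arrays entered 1 model with group as the factor, in limma 3.58.1 and R 4.3.3 (lmFit and eBayes at their defaults; 6 residual and 4.12 prior degrees of freedom), after a check on simulated data. Benjamini-Hochberg adjustment ran over all probe sets. Each array is from a different animal, and their number limits the precision.

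Named genes were all those past the threshold, the 10 next by p, the 15 largest differences each way among genes without overlap and not dim, up to 5 members by p of each of 59 lists, the cell type markers, and fixed genes, of which RBM3 and VIM were not analysed here. List members were matched by exact symbol. Members and lists were chosen with earlier results of these data known. Alternatives were another prior, weights per array, leaving out the dimmest 25%, centred arrays, averaging a gene's probe sets, the compared groups alone, a replicate block and omission of each array. Omission of repeated probe sets, of both lowest-weight arrays, and list counts without single arrays were chosen after seeing the data.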

Additional observations from a re-analysis of the deposited data

How the results depend on the processing

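The count of 31 probe sets past the threshold (limma) was 83 with a trended and robust prior, 93 with array weights, 82 with the dimmest 25% omitted and 49 with centred arrays. It ranged from 0 to 158 when single arrays were left out, and was 0 without SCS replicate 2 together with NEVKP replicate 2, the arrays of lowest weight, with 2814 at an unadjusted p under 0.05. With SCS and No Storage alone it was 25, of which 11 were shared with the 31. Replicate numbers were not found to pair the samples (correlations of deviations between SCS and No Storage from -0.078 to 0.13), and a replicate block gave 27, of which 17 were shared. Without repeated identical probe sets it was 33. Of the named genes' differences, those that changed sign were near 0: without single arrays CD14 ranged from -0.15 to 0.40, MRC1 from -0.55 to 0.66, EHHADH from -0.078 to 0.37 and HAVCR1 from -0.15 to 0.00059. The cause was not tested.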
